A study of Mus musculus with 14 samples.

Results

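The intercalated disc joins cardiac myocytes end to end, and the genes described here encode its main junction proteins. They are Gja1 of the gap junction, the desmosomal genes Dsp, Pkp2, Jup, Dsg2 and Dsc2, the adherens junction genes Cdh2, Ctnna1 and Ctnna3, and Tjp1, which encodes the scaffold ZO-1. These 10 genes were chosen by symbol, for the known place of their proteins, from 47642 annotated genes of the deposited table. No measured value was a criterion, but earlier results of these data were known. Of the annotated genes 22002 had at least 1 count, and all 10 junction genes had enough counts to be tested. Transcript levels were compared between UtyGT males, which carry the gene trap allele Uty Gt(XS0378)Wtsi on chromosome Y, and isogenic wild-type (WT) males, in the left ventricle of the heart. Uty encodes a homolog, on the male-specific part of chromosome Y, of the histone demethylase UTX. The study reported that in left ventricles the trap also lowered transcripts of the neighbouring gene Ddx3y and raised those of Eif2s3y. The genotypes thus do not differ in Uty alone. The chromosome Y of both genotypes derives from 129P2/OlaHsd mice and was backcrossed to C57BL/6J females, and all mice were 40 days old. The allele comes from 1 gene trap line of embryonic stem cells and is present in every cell of the animal, so that it is not limited to myocytes. Each of the 14 libraries, 7 per genotype, was made from the ventricular tissue of a different mouse with the QuantSeq 3′ FWD kit, in which reads mark the 3′ ends of polyadenylated transcripts.

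At the disc, desmosomes anchor the desmin filaments of neighbouring cells to each other, and adherens junctions do the same for the actin of their outermost sarcomeres. Gap junctions built of connexins pass the action potential from cell to cell. In the mature heart these structures are intermingled, and mutations of the desmosomal genes cause arrhythmogenic cardiomyopathy in humans.

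Promoter sequences from RefSeq, from 250 bases before to 50 bases after a transcription start, were matched by symbol for 5 of the 10 genes, namely Gja1, Dsp, Jup, Ctnna3 and Tjp1. A pair of them is printed because Dsp was the only junction gene called different between genotypes and Gja1 the one whose level varied most between mice. Both are on the plus strand of GRCm38.p6, at chr13:38151044-38151343 for Dsp and chr10:56377050-56377349 for Gja1. Capitals mark GC boxes and T-box motifs in Dsp, and AP-1 and CRE cores in Gja1.
Dsp: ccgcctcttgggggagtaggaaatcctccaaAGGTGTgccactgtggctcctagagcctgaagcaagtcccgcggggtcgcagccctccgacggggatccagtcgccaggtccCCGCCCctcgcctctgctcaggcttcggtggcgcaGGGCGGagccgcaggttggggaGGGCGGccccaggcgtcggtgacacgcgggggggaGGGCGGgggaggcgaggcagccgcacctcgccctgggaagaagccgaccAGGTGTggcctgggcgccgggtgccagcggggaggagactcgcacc
Gja1: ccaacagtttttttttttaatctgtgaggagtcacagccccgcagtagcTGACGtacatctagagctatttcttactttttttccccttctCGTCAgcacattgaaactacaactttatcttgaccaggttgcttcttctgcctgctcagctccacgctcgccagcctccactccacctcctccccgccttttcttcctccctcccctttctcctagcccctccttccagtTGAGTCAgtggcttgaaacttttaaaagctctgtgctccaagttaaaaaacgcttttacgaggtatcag
The Dsp promoter had 73.0% G and C, and that of Gja1 had 47.7%. On either strand, Dsp held 4 GC boxes (GGGCGG) and 2 T-box motifs (AGGTGT), of which the one after the start overlapped the only E-box (CANNTG). Gja1 held 1 AP-1 motif (TGANTCA), 2 CRE cores (TGACG) and 1 E-box, which overlapped the AP-1 motif. Neither held TATAAA or the M-CAT motif CATTCC. Of 32851 promoters of this length, 35.7% held a GC box, 13.7% a T-box motif, 7.81% an AP-1 motif, 20.8% a CRE core, 72.3% an E-box, 13.6% TATAAA and 14.7% an M-CAT motif. GC boxes also lay in the promoters of Jup, Tjp1 and the first of 3 annotated starts of Ctnna3, with 2 matches in each.

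Gene counts summed to between 6322161 and 9397378 in each WT library, and to between 6357485 and 10268706 in each UtyGT library. Uty, which carries the trap, was counted 47 to 75 times per WT library but only 1 to 6 times per UtyGT library, so that no library went against its label (log2 fold change -4.22 ± 0.28, adjusted p = 2.12e-07). Libraries are numbered as in the deposited table. On the first principal component, which held 45.8% of the variance, WT 4 and UtyGT 6 lay together at one end (-59.1 and -54.7), and WT 6 and WT 7 (24.6 and 33.2) lay on the side of most UtyGT libraries. The slope of a gene's level on its GC content also differed, from -0.07 to 0.34 log2 units per 10 percentage points in WT and from -0.30 to 0.14 in UtyGT. The 10 cardiomyocyte markers were present. They summed to 51154 to 91557 CPM (counts scaled to library size) in WT and 53977 to 95982 CPM in UtyGT. WT 4 and UtyGT 6 had the highest sums. The sums had a median of 75506 CPM in WT and 58653 CPM in UtyGT. Their means were 71876 ± 14361 CPM in WT and 63599 ± 14499 CPM in UtyGT. Among the 10 cardiomyocyte markers, Ryr2 was called higher and Mb lower. None of the 12 marker lists examined had a marker at 0 in every library.

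Of the 10 junction genes, 1 was called lower in UtyGT and 0 were called higher, where called means an edgeR adjusted p below 0.05. Over the 11563 genes tested, 3.34% were called lower and 4.7% higher, and counts of 1 and 0 among 10 genes do not set the junction genes apart from this background. At an unadjusted p below 0.05, edgeR gave 4 junction genes lower (Dsp, Ctnna3, Jup and Pkp2) and 0 higher, beside 12.3% and 12.5% of all genes. DESeq2, limma voom and the fit with surrogate variables also called 0 of them higher. The median log2 fold change was 0.03 over the junction genes and 0.01 over all genes tested. The ranges of the genotypes overlapped for every junction gene, whereas 2.14% of all genes tested had no overlap. Bulk ventricle does not tell fewer cells of a type from less RNA per cell. Below, levels are CPM after TMM scaling, as mean ± SD over the n = 7 mice of a genotype. Fold changes are from edgeR, as log2 of UtyGT over WT ± SE.

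**Figure D1:**
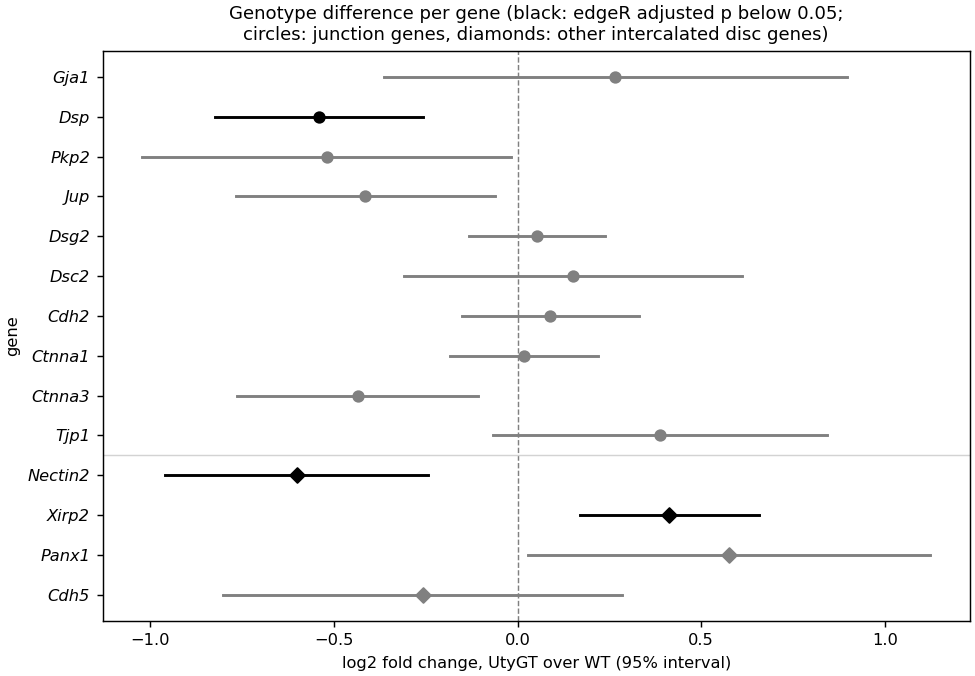
Log2 fold change of UtyGT over WT (x axis) for the 10 junction genes (circles) and 4 other disc genes (diamonds). Lines are 95% intervals derived from the edgeR fit, and genes of adjusted p below 0.05 are in black. Among the junction genes only the interval of Dsp (-0.82 to -0.26) is drawn in black.

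The desmosome was the junction with the largest number of genes examined. Dsp (ENSMUSG00000054889, chromosome 13, 38151328 to 38198577 on GRCm38) encodes desmoplakin, which ties the desmosomal plaque to desmin. Its level in WT ran from 801.1 to 1501 CPM with a median of 1120, and in UtyGT from 676.6 to 915.5 CPM with a median of 750.7. All 7 UtyGT libraries were below the WT median, and 6 of them were below the lowest WT library, WT 7. UtyGT 1 and UtyGT 5, at 800.9 and 798.4 CPM, were however nearly level with WT 7 (801.1 CPM). Only UtyGT 6 reached the WT range, where it exceeded WT 6 (874.3 CPM) and WT 7. The mean fell from 1106 ± 231 CPM to 760.4 ± 85.8 CPM, to 68.8% of the WT level, a log2 fold change of -0.54 ± 0.13 (95% interval -0.82 to -0.26, adjusted p = 0.0239). The call was kept in 24 of 26 alternatives, with adjusted p from 0.000187 to 0.0571. Several kept calls were close to the threshold, with an edgeR adjusted p of 0.0448 after correction for GC content, 0.0485 without WT 5 and 0.0494 without UtyGT 2. The call was lost without UtyGT 3 (adjusted p = 0.0542) and without UtyGT 7 (adjusted p = 0.0571). Its direction was the same in all 26 alternatives.

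Pkp2 (chromosome 16, 16213318 to 16272712) encodes plakophilin 2, an armadillo protein of the plaque that binds desmoplakin. Its WT libraries did not lie together. WT 1 to WT 5 lay between 148.2 and 205.8 CPM, whereas WT 6 and WT 7 had 72.5 and 71.4 CPM. In UtyGT, 6 libraries lay between 70.3 and 106.8 CPM and UtyGT 6 had 164.8 CPM, inside the range of WT 1 to WT 5. WT averaged 138 ± 49.3 CPM against 96.4 ± 32.5 CPM for UtyGT, a log2 fold change of -0.52 ± 0.24 with an adjusted p of 0.186. Pkp2 was thus not called. Its estimate was close to that of Dsp, and its standard error was larger. Without UtyGT 6 the estimate was -0.72 with an adjusted p of 0.0272, and with surrogate variables it was -0.33 with an adjusted p of 0.0167.

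Jup (chromosome 11, 100368958 to 100397763) encodes plakoglobin, which joins desmosomal cadherins to the plaque and also occurs in adherens junctions. It ran from 267.7 to 368.4 CPM in WT, with a median of 287.1, and from 111.1 to 310 CPM in UtyGT, with a median of 240.9. UtyGT 6 was the low extreme, and 6 UtyGT libraries were below every WT library. The highest of these, UtyGT 5 at 267.5 CPM, was nearly level with WT 5 at 267.7 CPM. UtyGT 4, at 310 CPM, was the only one above the WT median. UtyGT averaged 232 ± 61.8 CPM against 309 ± 38.8 CPM for WT, a log2 fold change of -0.41 ± 0.17 with an adjusted p of 0.135. Unlike Dsp and Pkp2, Jup was highest of all in WT 6 and WT 7 (347.6 and 368.4 CPM). Jup had the most GC-rich transcripts of the junction genes (57.0%), and after correction for GC content its log2 fold change was -0.24 with an adjusted p of 0.477, and after a correction for GC content in the last 500 nt of transcripts (3′ GC) it was -0.18 (adjusted p = 0.649). With surrogate variables Jup was called (adjusted p = 0.00903).

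Dsg2 and Dsc2 encode the desmosomal cadherins, desmoglein 2 and desmocollin 2, whose extracellular parts meet between the cells. Both are on chromosome 18, at 20558074 to 20604521 and at 20030633 to 20059554. Dsg2 was the steadiest of the junction genes. In WT it ran from 80.6 to 103.8 CPM with a median of 97.2, and in UtyGT from 94.4 to 106.9 CPM with a median of 97.1. Its log2 fold change was 0.05 ± 0.09, with a 95% interval of -0.13 to 0.24 (adjusted p = 0.755). Dsc2 had few counts, 59 to 162 per library, and ran from 9.67 to 16.4 CPM in WT and from 6.93 to 22.8 CPM in UtyGT. Its log2 fold change was 0.15 ± 0.22, with a wide 95% interval of -0.31 to 0.61 (adjusted p = 0.711), and was -0.05 without UtyGT 2, where Dsc2 was highest.

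**Figure D2:**
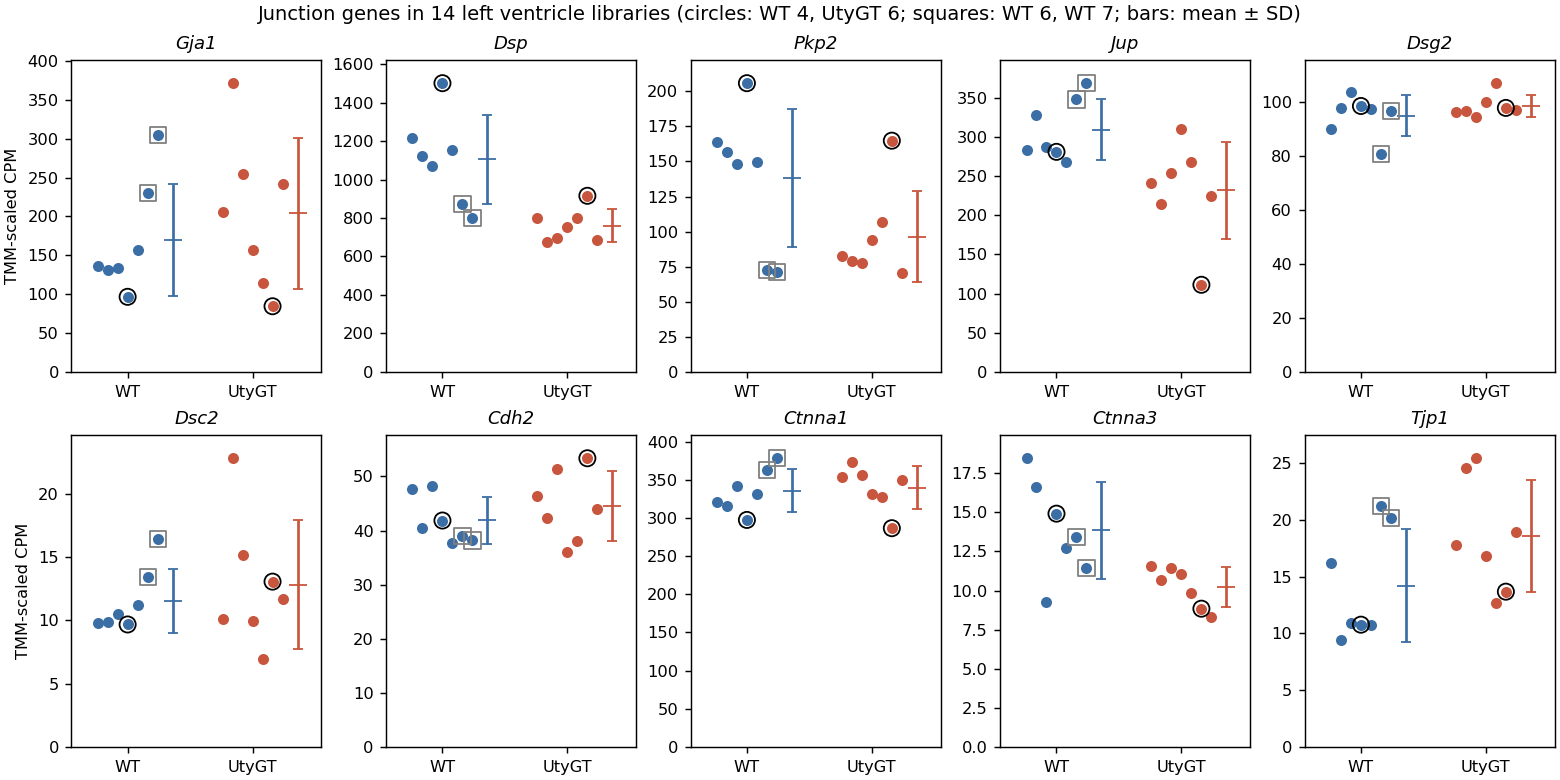
TMM-scaled CPM (y axis, from 0) of each junction gene in the 7 WT and 7 UtyGT libraries, 1 point per mouse, with mean ± SD beside them. Circles ring WT 4 and UtyGT 6 and squares ring WT 6 and WT 7. For Dsp, 6 UtyGT points lie below all WT points, those of UtyGT 1 and UtyGT 5 by very little. The squared WT points of Pkp2 lie among those of UtyGT.

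Adherens junction genes showed no called difference. Cdh2 (chromosome 18, 16588877 to 16809246) encodes N-cadherin, the classical cadherin of the disc. It ran from 37.7 to 48.3 CPM in WT and from 36.0 to 53.4 CPM in UtyGT, with medians of 40.4 and 44.0. The log2 fold change was 0.09 ± 0.11, with a 95% interval of -0.15 to 0.33 (adjusted p = 0.672). Ctnna1 (chromosome 18, 35118888 to 35254773) encodes αE-catenin, which couples cadherin complexes to actin. It lay between 297.5 and 378.3 CPM in WT and between 286.7 and 374 CPM in UtyGT. Its log2 fold change was 0.02 ± 0.10, with a 95% interval of -0.18 to 0.22 (adjusted p = 0.934). These intervals leave room for changes of up to 126% of WT for Cdh2 and 116% for Ctnna1, or down to 90.1% and 88.0%.

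Ctnna3 (chromosome 10, 63430098 to 65003667) encodes αT-catenin, a relative of αE-catenin that is abundant in the heart and binds plakophilin 2 as well as cadherin complexes. It had 68 to 145 counts per library. It ran from 9.25 to 18.5 CPM in WT with a median of 13.4, and from 8.31 to 11.6 CPM in UtyGT with a median of 10.7. Every UtyGT library was below the WT median, but the lowest WT library, WT 3, was below 5 of them. UtyGT averaged 10.2 ± 1.28 CPM against 13.8 ± 3.12 CPM for WT, or 74.1% of it. The log2 fold change was -0.44 ± 0.16 with an adjusted p of 0.0951. Ctnna3 was not called by edgeR, and was called by DESeq2 (adjusted p = 0.0466) and with surrogate variables (adjusted p = 0.0372). Those fits called 5.88% and 10.8% of all genes lower, and 2 and 4 of the junction genes. No test compared Ctnna3 with Ctnna1, so that a difference in response between these catenins is not shown.

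Gja1 (chromosome 10, 56377330 to 56402513) encodes connexin 43, the main connexin of the ventricular gap junction. Its level ran from 96.5 to 304.2 CPM in WT with a median of 136.6, and from 84.4 to 371.4 CPM in UtyGT with a median of 205.8. Both extremes were thus UtyGT libraries, UtyGT 6 low and UtyGT 2 high. In WT, WT 6 and WT 7 (229.9 and 304.2 CPM) were above the other 5, which reached 156.3 CPM at most. WT averaged 170 ± 72.1 CPM against 204 ± 97.0 CPM for UtyGT, a log2 fold change of 0.27 ± 0.30 with an adjusted p of 0.621. The 95% interval, -0.36 to 0.90, spans 77.7% to 186% of WT, so that changes within this range are compatible with these data. The estimate was 0.055 without UtyGT 2, 0.15 without WT 4, 0.47 without WT 7 and 0.029 with surrogate variables, and none of these alternatives called it.

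Tjp1 (chromosome 7, 65296165 to 65527781) encodes ZO-1, a scaffold that binds the tail of connexin 43 at the edge of gap junctions. It ran from 9.41 to 21.3 CPM in WT with a median of 10.9, and from 12.7 to 25.4 CPM in UtyGT with a median of 17.8. All 7 UtyGT libraries were above the WT median. WT 6 and WT 7, at 21.3 and 20.2 CPM, were however above 5 of the UtyGT libraries. The log2 fold change was 0.39 ± 0.22 (adjusted p = 0.276), and no alternative called it.

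**Figure D3:**
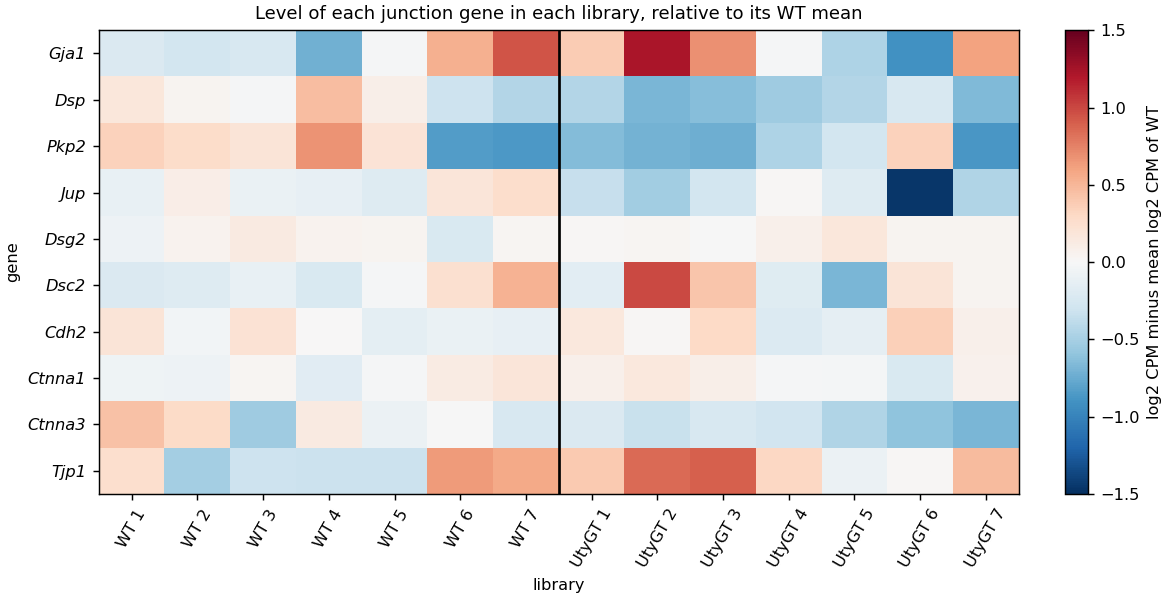
Log2 CPM minus the WT mean (colour) for each junction gene (rows) in each library (columns), red above and blue below the WT mean, with WT left of the line and UtyGT right of it. Pkp2 is blue in WT 6, WT 7 and 6 UtyGT libraries and red in UtyGT 6, where Gja1 is blue.

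The junction genes also differed in how much they varied between mice of 1 genotype. Among 7041 genes of at least 10 CPM, the median SD of log2 CPM within a genotype was 0.298. Dsg2 and Ctnna1 were among the steadiest of these genes, with SDs of 0.093 (percentile 0.170) and 0.122. Cdh2, Dsp and Ctnna3 were also below the median, with SDs of 0.180, 0.241 and 0.266. Jup (0.358), Dsc2 (0.423), Tjp1 (0.431) and Pkp2 (0.515) were above it. Gja1 varied most, with an SD of 0.649 at percentile 95.4. Thus within the desmosome alone the spread ran from that of Dsg2, near the lowest of the 7041 genes, to that of Pkp2, at percentile 89.0. These SDs include counting error, which weighs more at low counts such as those of Dsc2, Ctnna3 and Tjp1.

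In 5 pairs it was examined whether junction genes varied together whose proteins bind each other, belong to the same complex or are paralogs. Levels were log2 CPM after removal of the genotype means over 14 libraries. Dsp and Pkp2 varied together, with r = 0.93 and rho = 0.92 (permutation tests within genotype, adjusted p = 0.00025 and 0.00035). Within WT r was 0.95 and within UtyGT 0.90, and r was 0.93 without WT 4 and WT 7, the libraries farthest from the median of Dsp. Without WT 6, WT 7 and UtyGT 6, left out after seeing the data, r was 0.83 (permutation, adjusted p = 0.0258). Gja1 and Tjp1 also varied together, with r = 0.83 and rho = 0.85 (permutation, adjusted p = 0.00065 and 0.0007). For them r was 0.80 within WT, 0.91 within UtyGT, and 0.76 without UtyGT 2 and WT 7. Without WT 6, WT 7 and UtyGT 6, r was 0.73 and missed the threshold (permutation, adjusted p = 0.0525). The remaining pairs passed no test: r was -0.42 for Dsg2 with Dsc2 (rho = -0.36), -0.25 for Cdh2 with Ctnna1 (rho = -0.21) and -0.17 for Ctnna1 with Ctnna3 (rho = -0.23). Their adjusted p-values were 0.129, 0.515 and 0.576 for r and 0.282, 0.476 and 0.476 for rho. Without the pair of libraries farthest from the median they were -0.49, -0.08 and -0.39. The libraries at the extremes of Dsp and Pkp2, namely WT 4 and UtyGT 6 at the high side and WT 6 and WT 7 at the low side, also lay on opposite sides of the principal component named above. On it UtyGT 2 and UtyGT 3 lay beyond WT 6 and WT 7, and its part in these correlations was not tested. No background of r over other gene pairs was drawn, so that the correlations are not shown to be particular to binding partners. Dsp with Myl3 (r = 0.96) and Gja1 with Ghr (r = 0.99) had higher values, as given below.

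**Figure D4:**
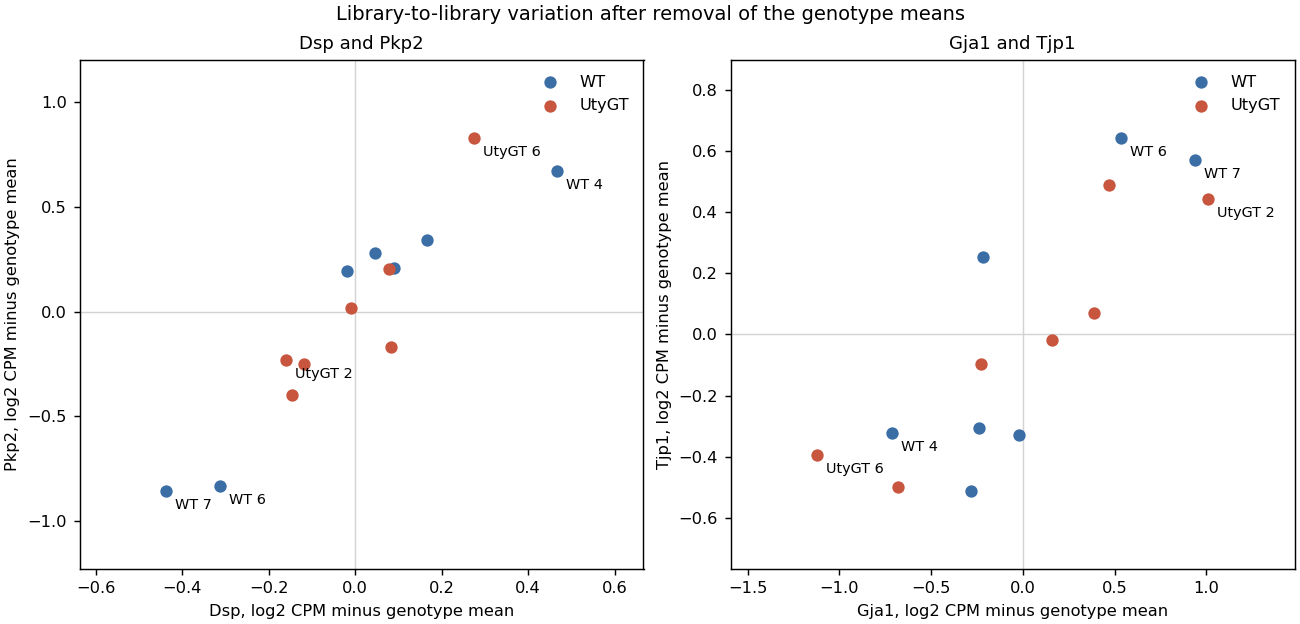
Log2 CPM minus the genotype mean of Pkp2 against Dsp (left) and of Tjp1 against Gja1 (right), 1 point per library, WT blue and UtyGT red. UtyGT 6 and WT 4 are at the upper right for Dsp and Pkp2 (r = 0.93) and on the left for Gja1 and Tjp1 (r = 0.83).

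The genes most like Gja1, Dsp and Cdh2 over the same 14 libraries were found among 4930 tested genes of at least 20 CPM, as a description only. Dsp was followed most closely by Myl3 (r = 0.96), a ventricular myosin light chain, Dhrs7c (0.95), an enzyme of the sarcoplasmic reticulum, and the myoglobin gene Mb (0.95). Of these Mb was called lower in UtyGT, with a log2 fold change of -0.74 ± 0.21 (adjusted p = 0.0419), and Myl3 had a log2 fold change of -0.61 ± 0.22 (adjusted p = 0.0979). Gja1 was followed by the growth hormone receptor gene Ghr (0.99), Cul3 (0.98), which encodes a cullin of ubiquitin ligases, and the initiation factor gene Eif4a2 (0.98), none of them called. Cdh2 was followed by Bod1l (0.92), Luc7l3 (0.87), which encodes a splicing factor, and Mitf (0.83), a transcription factor gene. Of these, Bod1l and Luc7l3 were called higher in UtyGT, by 0.83 ± 0.12 and 0.64 ± 0.13 on the log2 scale (adjusted p = 0.00177 and 0.00833), unlike Cdh2 itself. Each of these correlations is over the same 14 libraries, whose depths, GC slopes and places on the first principal component differed as given above.

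Beyond the junction genes, 78 other genes of the disc were described in 4 lists, of which 45 were tested, with 1 called higher and 1 lower and a median log2 fold change of -0.004. The first list held 14 partners of the junction proteins, such as β-catenin (Ctnnb1), vinculin (Vcl) and afadin (Afdn), all of them tested. In it 1 gene was called lower, Nectin2, and 0 higher. Nectin2 encodes an immunoglobulin-like adhesion molecule that is linked to actin by afadin. It ran from 17.9 to 34.9 CPM in WT and from 12.5 to 22.6 CPM in UtyGT, and every UtyGT library was below the WT median of 24.2 CPM. Its log2 fold change was -0.60 ± 0.17 (adjusted p = 0.0382). It was called in 14 of 26 alternatives. After correction for GC content the log2 fold change was -0.35 (adjusted p = 0.146), and for 3′ GC content -0.37 (adjusted p = 0.102). It was -0.59 and just missed the threshold with counts thinned to the smallest library (adjusted p = 0.0513). Without any 1 of 9 libraries it stayed between -0.53 and -0.63 but was not called, with adjusted p of up to 0.0901.

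The second list held 26 anchors and scaffolds of the disc, such as desmin (Des) and plectin (Plec), all of them tested. In it 1 gene was called higher, Xirp2, and 0 lower. Xirp2 encodes a Xin repeat protein that binds actin at the disc. It ran from 538.4 to 755.9 CPM in WT with a median of 557.2, and from 705.3 to 983.7 CPM in UtyGT with a median of 795.4, so that 6 of 7 UtyGT libraries were above every WT library. The mean rose from 613 ± 91.5 CPM to 817 ± 90.0 CPM (log2 fold change 0.41 ± 0.12, adjusted p = 0.0358). This call too was kept in 14 of 26 alternatives and was lost after correction for GC content (log2 fold change 0.21, adjusted p = 0.43). The same held after correction for 3′ GC content (0.33, adjusted p = 0.13) and without the filter on low counts (0.40, adjusted p = 0.0844). Without any 1 of 9 libraries it was lost too, at log2 fold changes of 0.37 to 0.43 and adjusted p of up to 0.0787.

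The third list held the other 19 connexin and 3 pannexin genes, of which 8 had no count in any library and 3 were tested. None of the 3 was called, and the one with the smallest p was Panx1, which encodes a channel protein. Its mean was 3.52 ± 1.35 CPM for UtyGT against 2.37 ± 0.621 CPM for WT, a log2 fold change of 0.58 ± 0.26 with an adjusted p of 0.178, and 0.37 without UtyGT 6. The connexin 40 gene Gja5, typical of atria and the conduction system, had 59 counts over all libraries and was not tested. The fourth list held 16 paralogs of the junction genes, most of them known from epithelia, of which 7 had no count in any library and 2 were tested. Neither was called, and Cdh5, the cadherin of endothelial cells, had a mean of 61.3 ± 24.5 CPM for UtyGT against 73.3 ± 23.4 CPM for WT, a log2 fold change of -0.26 ± 0.26 with an adjusted p of 0.57. The estimate was -0.11 without WT 7 and -0.43 without UtyGT 2, and with surrogate variables Cdh5 was called (-0.46, adjusted p = 0.0178). The desmosomal genes of stratified epithelia, Dsg1b, Dsg1c, Dsg3, Dsg4, Dsc1, Dsc3 and Pkp1, were those with no count, which over all 110927885 counts allows up to 3 counts each.

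Markers of other cell types were measured beside the junction genes. Endothelial markers, with Pecam1 and Tie1 called lower among 10, summed to 825 to 1112 CPM in WT and 734 to 949 CPM in UtyGT. Those of red blood cells, with Hba-a1 and Hba-a2 called lower among 5, summed to 3192 to 6874 CPM and 1071 to 5117 CPM. Of 8 epicardial and mesothelial markers only Wt1 had enough counts to be tested, and it was called higher. Their sums were 3.42 to 9.52 CPM and 5.79 to 16.6 CPM. No tested marker was called in the other lists. These were fibroblasts, with 8 of 9 markers tested (893 to 1112 CPM and 868 to 1190 CPM), smooth muscle and pericytes, with all 9 tested (1078 to 1568 CPM and 1127 to 1835 CPM), macrophages, with all 9 tested (393 to 627 CPM and 348 to 626 CPM), and atrial myocytes, with all 4 tested (260 to 601 CPM and 239 to 691 CPM). The same held for the conduction system, with 4 of 5 markers tested (25.9 to 43.7 CPM and 28.2 to 49.8 CPM), Schwann cells, with 3 of 5 tested (5.65 to 7.76 CPM and 5.62 to 14.8 CPM), and adipocytes, with 2 of 5 tested (3.11 to 17.0 CPM and 6.24 to 45.2 CPM). The 7 lymphocyte markers had too few counts to be tested, with sums of 0.707 to 3.82 CPM and 0.707 to 4.26 CPM. The summed cardiomyocyte markers were highest in the libraries where Pkp2 was highest, WT 4 and UtyGT 6, and their part in the differences of Dsp and Pkp2 was not tested. Leaving out both of these libraries does not adjust for the marker sums. Without WT 4 and UtyGT 6, Dsp was still the only junction gene called by edgeR (log2 fold change -0.50, adjusted p = 0.00889).

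**Figure D5:**
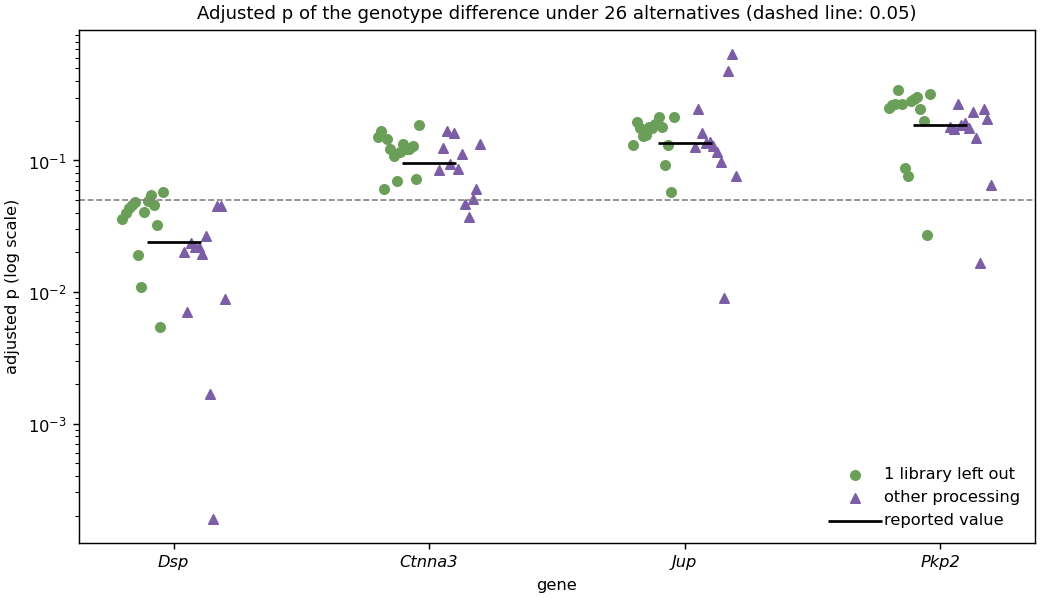
Adjusted p (y axis, log scale) of the genotype difference of Dsp, Ctnna3, Jup and Pkp2 as reported (bar), with 1 library left out (circles) and under other processing (triangles), with 0.05 as a dashed line. Of 26 alternatives, 24 lie below the line for Dsp, 2 for Ctnna3, 1 for Jup and 2 for Pkp2.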

How the data were processed

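RNA of left ventricles was measured in 14 QuantSeq 3′ FWD libraries, 7 WT and 7 UtyGT, assigned to their genotype by the column names of the deposited table. In both genotypes the sample titles carry numbers from separate ranges, but no column can be tied to a single title. Whether these ranges go with differences between libraries was thus not tested. According to the methods of the study, reads were checked and aligned to GRCm38/mm10 on the Bluebee platform, and the deposited counts per gene were obtained by the authors with featureCounts 1.6.0, with Ensembl v98 as annotation. CASAVA 1.4, FastQC and STAR are named besides in the processing notes of the submitters. The table holds 5 entries that name no gene, with 45.9% to 49.1% of reads per library, which were left out, and these entries have the form that another counter writes, so that neither the counter nor its handling of strand is certain. The remaining columns hold the comparison that the authors made with DESeq2 1.22.2. The deposited baseMean is a signal, namely the mean of scaled counts. The deposited log2 fold changes with their standard errors, the deposited test score and the deposited p-values complete it, and no column of it was used.

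The software was edgeR 4.0.16 and limma 3.58.1 under R 4.3.3. After TMM scaling and a filter on low counts (filterByExpr, minimum 10), the genotypes were compared with edgeR's quasi-likelihood F test (robust). Genotype was the sole term, and p-values were adjusted by Benjamini-Hochberg over 11563 genes. Log2 CPM used a prior count of 2. The biological coefficient of variation was 26.2%. Correlations were tested with 100000 permutations within genotype, two-sided, and adjusted over 5 pairs. The junction genes, the gene lists and the tests were chosen with earlier results of these data known. Named were all junction genes, Uty, up to 6 called genes of each other list with the smallest adjusted p or otherwise the tested gene with the smallest p, and the 3 genes most like Gja1, Dsp and Cdh2. Members of lists that only illustrate them were named besides. GC content came from GENCODE M21 for 11550 tested genes. Promoters came from RefSeq on GRCm38.p6. Genes that overlap junction genes had at most 11 counts in all libraries together.

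As alternatives, scaling was by RLE or by totals alone, low counts were kept or filtered at 1 CPM, libraries were thinned to 6322161 counts, and the 10 most abundant genes were removed with the mitochondrial ones. Other tests were limma voom, DESeq2 1.42.0 and edgeR with 1 surrogate variable from sva 3.50.0. GC content was corrected by a lowess curve for each library with span 0.3, and each library, or WT 4 with UtyGT 6, was left out. The same correction on GC content in the final 500 nt (3′ GC), and correlations without WT 6, WT 7 and UtyGT 6, were chosen after seeing the data. Tests were checked on simulated data, which held no differences between libraries like those along the first principal component. Each mouse gave 1 library, so p-values cover the spread between mice. No molecular identifiers are named in the sources used here, and a count of 0 is taken to allow up to 3, which accounts for counting error alone.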

Additional observations from a re-analysis of the deposited data

Results flagged for a closer look

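Pkp2 in UtyGT 6 stood apart from the other UtyGT libraries, with 164.8 CPM against 106.8 CPM in the nearest of them, a gap of 0.614 of the range of the group where 0.568 is the critical value for 7 samples. It was the only value to do so among 30 groups of 7 libraries examined, for the junction genes, Uty and the other genes named from the lists of the disc, and chance alone gives about 1 such value in 20 groups.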

How the results depend on the processing

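The number of junction genes called lower was 1, and was 2 with DESeq2, 4 with surrogate variables and 0 to 2 when single libraries were left out. The number called higher was 0 throughout the alternatives. Of the other disc genes 1 was called higher, and this number was 3 without composition scaling, 0 with unfiltered counts, 2 with DESeq2, 5 with surrogate variables, 0 with the 3′ GC correction, 2 without WT 4 and UtyGT 6, and 0 to 2 without single libraries. The 1 called lower became 0 with thinned counts, 2 with DESeq2, 5 with surrogate variables, 0 with either GC correction, 2 without WT 4 and UtyGT 6, and 0 to 5 without single libraries. Over all genes 543 were called higher and 386 lower. The number higher was 337 with unfiltered counts, 1255 with surrogate variables, 275 with the GC correction, 322 with the 3′ GC correction and 276 to 919 without single libraries. The number lower was 680 with DESeq2, 1245 with surrogate variables, 195 and 220 with the GC and 3′ GC corrections, 834 without WT 4 and UtyGT 6 and 146 to 1329 without single libraries, where the highest number came without UtyGT 6. The causes of these changes were not tested.

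Reversed signs were found for junction genes that were not called in any fit. With the GC and 3′ GC corrections the log2 fold changes were -0.074 and -0.046 for Cdh2, -0.058 and -0.028 for Ctnna1, -0.049 and -0.012 for Dsc2 and -0.056 and -0.121 for Dsg2. That of Ctnna1 was also -0.022 with surrogate variables and ran from -0.026 (without WT 4) to 0.048 without single libraries, being below 0 also without WT 1 or UtyGT 2. That of Dsc2 ran from -0.046 (without UtyGT 2, the only such case below 0) to 0.258. The correlation of Cdh2 with Ctnna1 was 0.070 without WT 4 and UtyGT 6 and 0.49 without WT 6, WT 7 and UtyGT 6. That of Gja1 with Tjp1 was 0.73 without the latter, past the threshold no longer. No paired analysis was possible because the columns carry no number that ties libraries of different genotypes. Dsc2, Ctnna3 and Tjp1 had the fewest counts of the junction genes, which limits their precision.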

Other observations

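Of the lists described, that of 9 smooth muscle and pericyte markers had all 9 log2 fold changes above 0, with a median of 0.36, of which 3 had an unadjusted p below 0.05 and 0 were called by edgeR. Of 10 endothelial markers 9 were below 0, with a median of -0.38. The 5 red blood cell markers were all below 0, with a median of -0.75. Over the 11563 genes tested, 5903 were above 0 and 5660 below 0. Of all these genes 12.5% were higher at an unadjusted edgeR p below 0.05. The lists given here were named after seeing the values.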
